A study of Callithrix jacchus with 54 samples.

Results

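The cytosolic ribosomal protein genes encode the proteins of the small (40S) and large (60S) subunits of the ribosome. They were followed here while embryonic stem cells of the common marmoset (cjESCs) were turned into primordial germ cell-like cells (PGCLCs). Members were the genes whose symbol has the form RPL or RPS with a number and, at most, a closing A, X, Y or L form, together with RPLP0, RPLP1 and RPSA; the RPS6K kinases, which modify the ribosome and do not belong to it, were kept out. The rule took 68 of the 14812 genes in the deposited table, and no measured value entered it. Of these, 61 are standard subunit genes, 24 of the 40S and 37 of the 60S subunit, and 7 are L forms, which are paralogs (sequence-related copies) of a standard gene. RPL10L, an autosomal copy of the X-linked RPL10 that is known from the male germ line, is described apart, so that counts of members refer to the other 67. All 68 passed the filter on low values, and the 67 were above 0 in every library. RPLP2, RPL39 and FAU, which belong to the same machinery, were not analysed here.

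A ribosome carries a single copy of most of these proteins, and the genes are among the most strongly transcribed of any growing cell. Their mRNAs share a pyrimidine tract at the 5′ end, through which the mTOR pathway adjusts their translation, and MYC proteins are known to raise the transcription of ribosomal protein and ribosome assembly genes. Some standard genes have a paralog used in place of the parent in particular tissues: RPL3L in striated muscle, RPL10L and RPL39L in the testis. RPL22 and RPL22L1 are known to act against each other's expression.

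The 54 libraries were 27 conditions in 2 biological replicates, all of the female cjESC line CMES40 carrying the reporters BLIMP1-tdTomato and NANOS3-eGFP. The DK20FA cjESCs and the cells made from them also carried rtTA, tetO-BLIMP1, SOX17-GR and DD-TFAP2C transgenes. They were cultured for 12, 24, 48 or 96 h in BLSE, which is BMP4, LIF, SCF and EGF given with a Rock inhibitor, in BLSE with enforced SOX17, or in the same medium lacking BMP4 (SOX17 + LSE). The PESFA cjESCs and the cells made from them were wild type apart from the reporters. They were pre-treated with IM12 and activin A and then kept in BLSE with IWR1, with or without BMS493, for 12 to 96 h, or with IWR1 to day 6. Day 6 cells were aggregated with embryonic mouse gonadal somatic cells into xenogeneic reconstituted ovaries (xrOvaries) and collected at days 20, 40 and 70. By the paper's methods, cjESCs of both media were kept on irradiated mouse embryonic fibroblasts (feeders), and pre-treatment was done on fibronectin. The cjESCs and pre-treated cells were sorted as TRA-1-60-positive and the cells of 12 to 48 h were not sorted. From 96 h on tdTomato-positive cells were taken, except in BLSE alone, where all cells were taken. Each line goes with its own medium, and only the PESFA cells were pre-treated before induction. These cannot be told apart in comparisons between the lines. At 96 h BLSE alone also differs from the other conditions in its sort.

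Values are TPM (transcript abundance per length, scaled to a constant total in each library), so read depth is unknown and no interval from depth is given. The listed genes summed to between 790300 and 839203 TPM, lowest in a PESFA library, and between 10146 and 12688 genes were above 0, fewest in xrOvary day 20 replicate 2, with 11441 in the next lowest library. The defining markers followed the labels: NANOS3, an RNA-binding protein of germ cells, stood at 440 ± 65.6 TPM (SD, n = 2) at day 6 against 0.580 ± 0.226 in DK20FA cjESCs. DAZL, which marks later germ cells, reached 52.9 ± 1.43 TPM at day 70. Its means were 0.195 TPM at xrOvary day 20 and 1.725 TPM at day 40, below the 3.33 TPM of DK20FA cjESCs. Among the other late markers, MAEL stood at 70.9 and SYCE3 at 21.5 TPM at day 70. DDX4 and PIWIL2 stayed low there, at 2.45 and 2.235 TPM. The 6 gonadal somatic markers in the table summed to at most 6.73 TPM in xrOvary libraries, with NR5A1 listed at 0. The 15 fibroblast markers in the table, with FN1 at 0 throughout, summed to 8264 to 12618 TPM in the 4 PESFA and pre-treated libraries and 2038 to 7981 TPM in the other 50.

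The share of the transcriptome held by the ribosomal protein genes stayed within a narrow range up to day 6 and was higher at each later time. In DK20FA cjESCs the 67 members held 15.0 and 15.6% of all listed TPM, the lowest mean of the 27 conditions. The share was 16.5% in both PESFA libraries and 16.4 and 16.6% in both pre-treated ones. Over the 30 libraries of 12 to 48 h of induction it ran from 15.2 to 19.7%, and the widest gap between replicates, 3.98 percentage points, lay in BLSE + IWR1 at 48 h. The share at 96 h was 17.4% ± 0.152 in BLSE, 18.4% ± 0.0233 in SOX17 + BLSE, 16.5% ± 0.474 in SOX17 + LSE, 18.5% ± 0.986 in BLSE + IWR1 and 19.2% ± 0.228 with BMS493 (SD, n = 2). The BLSE + IWR1 libraries, at 19.2 and 17.8%, span those of SOX17 + BLSE and overlap those with BMS493, while SOX17 + LSE and BLSE lie below without overlap.

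From day 6 on the order was the order of culture time, with no overlap between libraries. The members held 19.7 and 20.2% of listed TPM at day 6 and 24.4 and 24.2% at xrOvary day 20. At day 40 the share was 27.2% ± 0.358 (SD, n = 2), and at day 70 both libraries were at 29.4%. In TPM the sum went from 165963 ± 2999 at day 6 to 240459 ± 274 at day 70. Of the 67 members, 63 had a higher mean at day 70 than at day 6, and 44 had their highest mean of all conditions at day 70 and 10 at day 40. Since each library pools many cells, fewer cells of a type and less RNA per cell cannot be told apart, and TPM show a share of the mRNA, not its amount per cell.

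**Figure D1:**
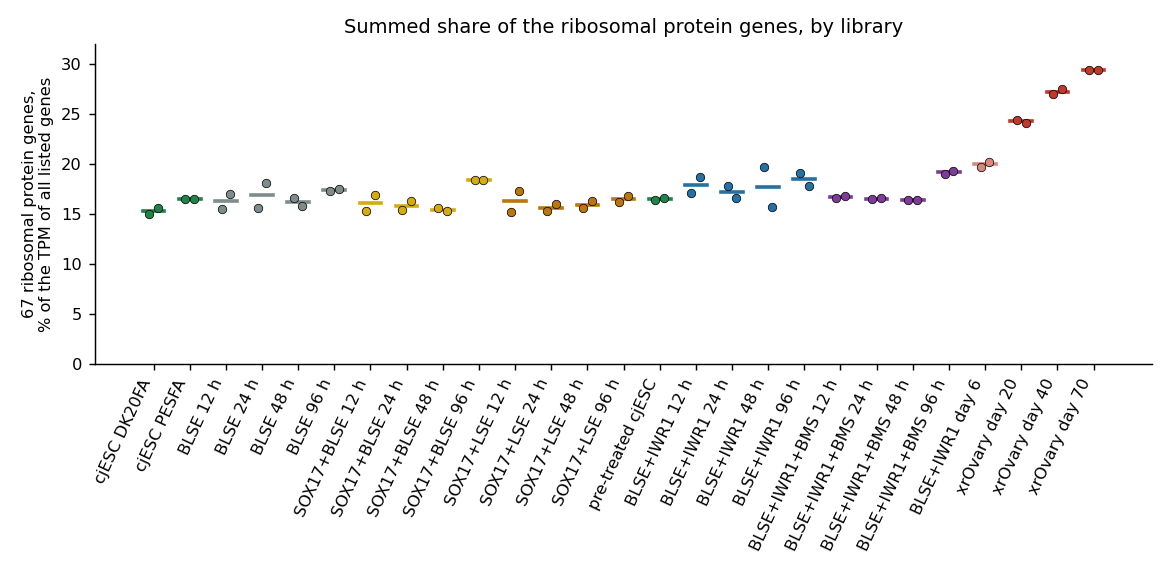
Summed TPM of the 67 ribosomal protein genes as a percentage of the TPM of all listed genes (y axis) in each of 27 conditions (x axis); points are libraries and bars the mean of 2. The share lies between 15.0 and 20.2% up to day 6 and climbs to 29.4% at xrOvary day 70.

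Levels within the family spanned a wide range even for proteins present in equal numbers in the ribosome. The 5 highest by mean TPM over all libraries were RPS14 (4924), RPS2 (4527), RPS18 (4433), RPL13A (4416) and RPL8 (4319). In all, 50 of the 67 averaged above 1000 TPM, where the whole table holds 108 such genes. The 5 lowest were RPL3L (3.83), RPL21 (24.1), RPL39L (36.4), RPL6 (37.9) and RPL26 (57.2). RPL21, RPL6 and RPL26 are standard genes of every ribosome, and the median of the 61 standard genes was 2443 TPM. Reads that fit many places were dropped by the study's mapping filter, and ribosomal protein genes have many processed copies in primate genomes. The part of that filter in these low values was not tested, so levels of these members are uncertain. Standard members varied by 1.32 to 3.44 times between their lowest and highest condition (median 2.06), and the 6 L forms by 1.42 to 15.5 times (median 3.61).

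Members of both subunits rose in the xrOvary. Between day 6 and xrOvary day 20, 26 of the 67 members rose, where 6.56% of all 11197 genes tested rose, and 3 fell, where 13.8% of all genes fell. A gene was called when limma's moderated test over all 54 libraries gave a Benjamini-Hochberg adjusted p under 0.01 over all genes. The median difference of the members was 0.22 on the log2(TPM + 1) scale, beside −0.08 for all genes. The 26 were 12 of 24 genes of the 40S subunit, 13 of 37 of the 60S subunit and 1 of 6 L forms. Without day 6 replicate 1 the 29 calls became 14, without day 6 replicate 2 18 and without xrOvary day 20 replicate 2, the library with the fewest genes above 0, 17 (15 up and 2 down), with 2 falls in each case.

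RPL38, a small 60S protein (gene 100413070), stood at 2726 and 2863 TPM at day 6 and at 4724 and 4902 TPM at day 20. It therefore rose without overlap, by 0.78 ± 0.14 (SE) on the log2 scale (adjusted p = 4.17e-05, limma), which is 1.72-fold. RPL26, at the subunit's tunnel exit, went from 39.9 and 34.0 to 58.0 and 62.1 TPM, a rise of 0.69 ± 0.15 (adjusted p = 3.61e-04). Its mean at day 6 was its lowest of all conditions, after 70.35 TPM in pre-treated cells and 61.0 TPM at 96 h in BLSE + IWR1. RPS20, of the head of the 40S subunit, was at 4314 and 4297 TPM at day 6 and at 6902 and 6699 TPM at day 20 (0.66 ± 0.10), and was named after its values were seen. These 3 stayed above their day 6 level at day 40 and day 70. RPSA, the laminin-binding 40S protein, went from 2249 and 2199 to 3027 and 2849 TPM (0.40 ± 0.086, adjusted p = 3.70e-04). RPLP1, a protein of the 60S stalk that recruits elongation factors, went from 2372 and 2371 to 3161 and 3304 TPM (0.45 ± 0.11, adjusted p = 0.00119).

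In the second interval in the xrOvary, day 20 to day 70, 22 members rose, where 3.89% of all genes rose, and 1 fell, where 12.2% of all genes fell. The members' median difference was 0.27 against −0.13 over all genes. Of the 40S genes 13 of 24 rose and of the 60S genes 9 of 37, with no L form among them. The largest rises were those of RPS4X, RPL10 and RPLP1. Every one of the 4 libraries mattered to the count: the 23 calls became 13 and 11 without day 20 replicate 1 or 2, and 9 and 8 without day 70 replicate 1 or 2, 1 of them a fall each time.

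RPS4X (gene 100395458), the X-linked gene of a 40S protein, was at 3594 and 3610 TPM at day 20, at 4377 and 4627 TPM at day 40 and at 5808 and 5730 TPM at day 70. The rise from day 20 was 0.68 ± 0.089 (adjusted p = 2.07e-07). RPL10 (gene 100415355), also X-linked and set in the 60S subunit late in its assembly, was the only standard member called lower at day 20. It went from 3260.5 and 3346 TPM at day 6 down to 2746 and 2824 TPM at day 20, a fall of 0.25 ± 0.072 (adjusted p = 0.00788) that is not called without any 1 of the 4 libraries or under median-ratio scaling. By day 70 it was at 4189 and 4370 TPM, a rise of 0.62 ± 0.072 from day 20 (adjusted p = 1.71e-08). RPLP1 reached 4776 and 4747 TPM (0.56 ± 0.11, adjusted p = 9.50e-05), and RPLP0, its partner in the stalk, went from 4664 and 4562 to 6177 and 6227 TPM (0.43 ± 0.061, adjusted p = 1.09e-06).

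**Figure D2:**
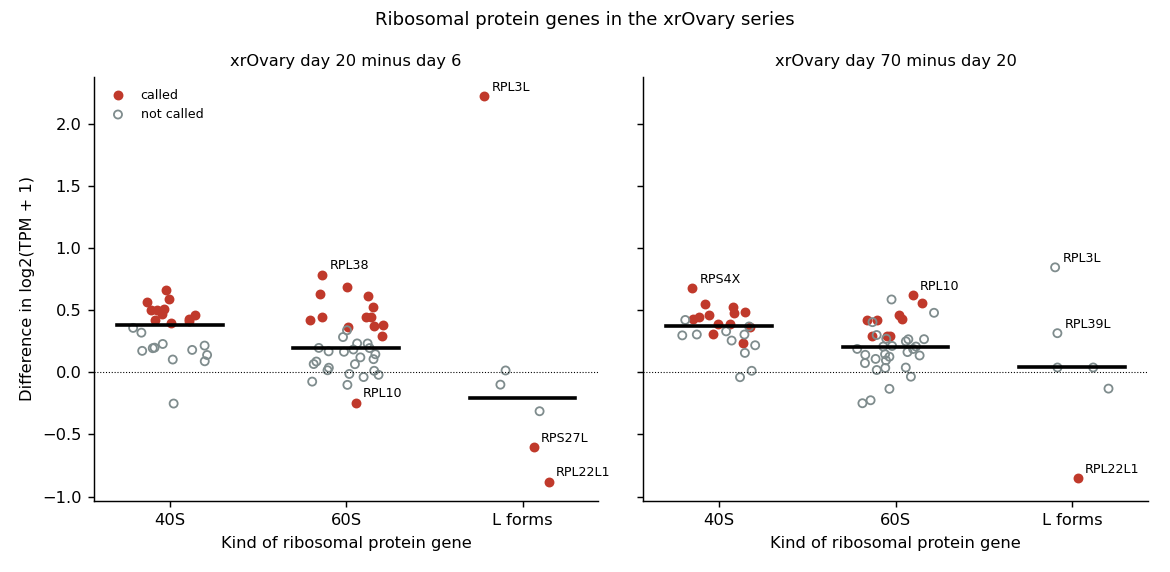
Difference in log2(TPM + 1) (y axis) of each of the 67 members, by kind (x axis), for xrOvary day 20 minus day 6 (left) and day 70 minus day 20 (right); filled points were called at an adjusted p under 0.01 and bars are medians. The medians of the 40S genes are 0.38 and 0.37 and those of the 60S genes 0.20 and 0.21, while RPL22L1 lies at −0.88 and −0.85.

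Under median-ratio scaling 18 members were up and 1 down at entry, where 8.39% of all genes rose, and 32 were up and 1 down afterwards, where 7.14% rose. Under quantile normalization 14 were up and 3 down at entry, where 9.94% rose. The later interval gave 4 up and 2 down under quantile normalization, where 6.96% of all genes rose and 7.56% fell, so the excess of rising members over all genes was not seen there, and 3 of these 6 calls were among the 23. TPM have a fixed total, so a gain in 1 set of genes lowers the TPM of the others, and median-ratio scaling moves the median of all genes in the later interval from −0.13 to 0. A model of the 4 libraries of a comparison alone called 0 members by limma in both intervals, and 0 of all 11197 genes. It put 40 and 41 of the 67 members at an unadjusted p under 0.05. Here and below, the share of all genes at that unadjusted limit is not given, so such counts cannot be set against all genes.

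The summed levels of the subunits were also compared. Summed TPM of the 40S genes over that of the 60S genes was 0.789 ± 0.0121 in DK20FA cjESCs, 0.717 ± 0.00577 in PESFA cjESCs and 0.738 ± 0.0153 in pre-treated cells (SD, n = 2). It was 0.704 ± 0.0218 at 96 h in BLSE + IWR1 and 0.729 ± 0.0121 at day 6. In the xrOvary it was 0.797 ± 0.0197 at day 20, 0.808 ± 0.0145 at day 40 and 0.863 ± 0.00103 at day 70, the highest of the 27 conditions. Days 20 and 40 are within their replicate spread of each other, and day 70 is above every other library. RPS29, a small zinc-binding 40S protein named after its values were seen, went from 4391 and 4747 TPM at day 6 to 10374 and 9772 TPM at day 70. The standard 40S genes had folds of 1.03 to 2.20 between day 6 and day 70 (median 1.57) and the 60S genes 1.05 to 2.01 (median 1.37).

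The L forms are given with their parents. RPL22L1 (gene 100398428) stood at 302 and 335 TPM at day 6, at 179 and 166 TPM at day 20, at 140 and 134 TPM at day 40 and at 102 and 89.4 TPM at day 70, with no overlap between times. It fell by 0.88 ± 0.15 at entry (adjusted p = 1.29e-05) and by a further 0.85 ± 0.15 to day 70 (adjusted p = 2.71e-05). RPL22, its parent, was at 646 and 645 TPM at day 6 and at 774 and 808 TPM at day 70, and neither of its differences, 0.18 ± 0.084 and 0.11 ± 0.084, was called. RPL22L1 thus went from 46.8 and 52.0% of the TPM of RPL22 to 13.1 and 11.1%, and in PESFA cjESCs it was at 70.3 and 90.4%.

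RPS27L, a paralog of RPS27 known as a p53 target, had its highest means in the sorted cells of 96 h with enforced SOX17. At 12, 24 and 48 h its means were 222, 228 and 240 TPM in SOX17 + BLSE. They were 205, 199.6 and 212 TPM in SOX17 + LSE and 211, 199.9 and 204 TPM in BLSE. Its TPM were 169 and 210 in DK20FA cjESCs, 220 and 239 at 96 h in BLSE, 390 and 408 in SOX17 + BLSE and 349 and 334 in SOX17 + LSE. The rise to SOX17 + BLSE was 1.08 ± 0.13 (adjusted p = 5.88e-09), and the 4 SOX17 libraries at 96 h lie above the cjESC and BLSE libraries. In the xrOvary it fell by 0.60 ± 0.13 from day 6 (adjusted p = 3.13e-04), from 245 and 256 to 169 and 160 TPM, while RPS27 rose from 2286 and 2365 to 3120 and 3135 TPM (0.43 ± 0.10, adjusted p = 0.00130).

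RPL3L and RPL39L are expressed far below their family. RPL3L was at 1.33 and 0.670 TPM at day 6, 10.5 and 6.39 TPM at day 20, 12.4 and 12.9 TPM at day 40 and 15.6 and 15.4 TPM at day 70. Its mean at day 6 was its lowest of all conditions, after 2.66 TPM at 96 h in BLSE + IWR1. It rose at entry by 2.22 ± 0.33 (adjusted p = 1.32e-06), a scale that understates the change of so low a gene, and its later difference of 0.85 ± 0.33 was not called. RPL3 itself was 3575 and 3527 TPM at day 6, and from day 6 to day 70 RPL3L was at most 0.379% of its parent. RPL39L had its highest mean in DK20FA cjESCs, at 48.3 and 65.7 TPM, against 28.4 and 24.7 in PESFA and 11.3 to 24.0 TPM from day 6 on. RPL26L1, at 88.2 TPM on average against 57.2 for its parent RPL26, had its highest mean at 96 h in BLSE, at 133 and 128 TPM against 72.4 and 83.5 TPM in DK20FA cjESCs (0.74 ± 0.12, adjusted p = 5.90e-06). RPL7L1, a nucleolar paralog of RPL7, stayed between 143 and 205 TPM throughout.

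**Figure D3:**
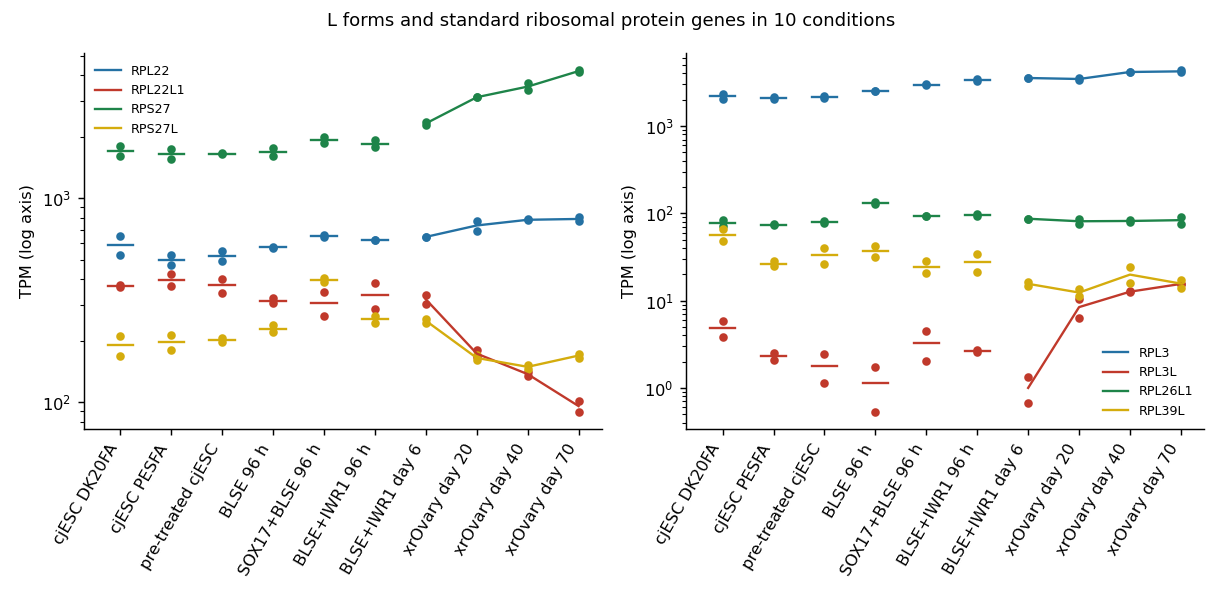
TPM on a log axis (y axis) of RPL22, RPL22L1, RPS27 and RPS27L (left) and of RPL3, RPL3L, RPL26L1 and RPL39L (right) in 10 conditions (x axis); points are libraries, bars and lines the mean of 2, and lines join day 6 to xrOvary day 70. RPL22L1 drops from 302 and 335 TPM at day 6 to 102 and 89.4 TPM at day 70 while RPL22 does not fall.

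On both routes to PGCLCs some members rose by 96 h, on the deposited scale at a rate close to that of all genes. With SOX17 + BLSE against DK20FA cjESCs, 21 of 67 members rose, where 25.6% of all genes rose, and 2 fell, where 17.6% of all genes fell. With BLSE + IWR1 against pre-treated cjESCs, 18 rose, where 22.7% of all genes rose, and 3 fell, where 17.4% of all genes fell. The median difference of the members was 0.19 and 0.22, and that of all genes was 0.14 in both. Under median-ratio scaling, which moves the median of all genes to 0.00 and −0.04, SOX17 + BLSE gave 3 up and 2 down, where 20.1% of all genes rose and 22.6% fell. BLSE + IWR1 gave 2 up and 7 down on that scale, where 16.4% rose and 22.6% fell, and the share of members that rose lay below that of all genes in both. The summed level then changed by 0.07 and −0.02 in place of 0.26 and 0.19 on the log2 scale.

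The comparisons use separate libraries, and 11 members rose in both, 52.4% of the SOX17 list and 61.1% of the IWR1 list. Of all genes that rose, 1745 did so in both, 60.8% of the SOX17 list and 68.5% of the IWR1 list, so the shares were not higher among the members. Among the 11, RPL11, which binds MDM2 when free of the ribosome, was at 2834 and 2869 TPM in DK20FA cjESCs and at 4778 and 4855 TPM with SOX17 + BLSE (0.76 ± 0.093, adjusted p = 1.62e-08). RPL23A, near the exit of the nascent chain, was at 1827 and 1622 TPM in pre-treated cells and at 2751 and 2759 TPM with IWR1 (0.68 ± 0.090, adjusted p = 7.88e-08). RPL3 (0.66 ± 0.063) and RPL13A (0.62 ± 0.084) followed in the same comparison. RPS21, a 40S protein, rose with SOX17 + BLSE by 0.80 ± 0.16 (adjusted p = 7.26e-05), from 1530 and 1644 to 2778 and 2728 TPM.

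The members that fell were few. With SOX17 + BLSE they were RPL39L (fell by 1.18, SE 0.25, adjusted p = 1.51e-04) and RPL6 (fell by 0.99, SE 0.17, adjusted p = 8.47e-06), the second at 40.8 and 49.2 TPM in cjESCs and 21.9 and 22.2 TPM at 96 h. With BLSE + IWR1 they were the stalk genes RPLP1 and RPLP0 and the 40S gene RPS12. RPLP1 was at 2367 and 2833 TPM in pre-treated cells and 2056 and 1623 TPM at 96 h (fell by 0.50, SE 0.11, adjusted p = 1.36e-04). RPS12 fell by 0.39 (SE 0.11, adjusted p = 0.00432) and RPLP0 by 0.21 (SE 0.061, adjusted p = 0.00350). These falls rest on the second replicates: without pre-treated replicate 2 the count was 7 up and 0 down by limma, and without BLSE + IWR1 replicate 2 it was 19 up and 0 down, with 23 and 34 members at an unadjusted p under 0.05. Without BLSE + IWR1 replicate 1 it was 10 up and 3 down.

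In BLSE alone, 12 members rose by 96 h, where 12.4% of all genes rose, and 1 fell, where 17.1% of all genes fell. RPL26L1, RPL35 and RPS28 led. RPL35, of the 60S subunit, went from 1467 and 1502 to 2215 and 2663 TPM (0.71 ± 0.17, adjusted p = 0.00106), and RPS28, a small 40S protein, rose by 0.57 ± 0.13 (adjusted p = 6.82e-04). The member that fell was RPL3L, from 3.79 and 5.87 TPM to between 0.530 and 1.75 TPM. Without DK20FA replicate 1 or BLSE replicate 2, 5 members were called in place of 13, and without BLSE replicate 1, 8.

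**Figure D4:**
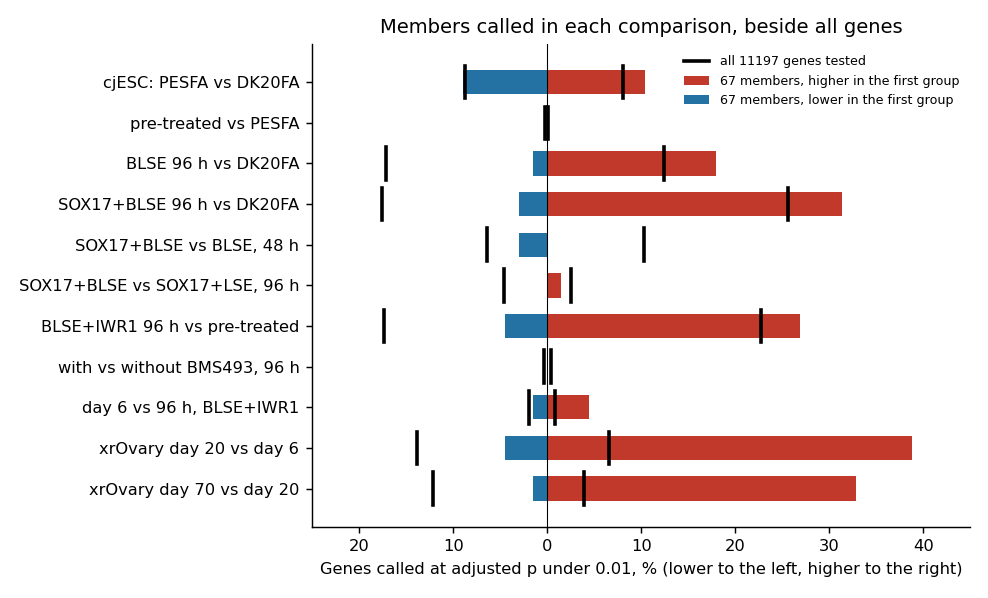
Percentage of the 67 members called higher (bars to the right) or lower (bars to the left) at an adjusted p under 0.01 in 11 comparisons (y axis), with black lines at the percentage of all 11197 genes tested. The bars for higher calls pass the lines by a wide margin at xrOvary day 20 (26 members up, 6.56% of all genes) and day 70 (22 up, 3.89%) and lie near them at 96 h.

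The cjESCs in both media differed in some members, at a rate close to that of all genes. In PESFA against DK20FA cjESCs, 7 members (10.4%) were higher, where 8.09% of all genes were, and 6 (8.96%) were lower, where 8.73% of all genes were. All 7 that were higher were 60S genes, led by RPL30 (597 and 636 against 798 and 931 TPM, 0.48 ± 0.12, adjusted p = 0.00257), RPL23 (0.48 ± 0.10, adjusted p = 5.08e-04) and RPL24 (0.34 ± 0.089, adjusted p = 0.00378). The 6 that were lower were 3 genes of the 40S subunit, 1 of the 60S and 2 L forms, led by RPL39L (fell by 1.06, SE 0.25, adjusted p = 0.00150), RPL7 (fell by 0.39, SE 0.071, adjusted p = 6.54e-05) and RPS3A (fell by 0.39, SE 0.096, adjusted p = 0.00256). The 13 calls became 1 without PESFA replicate 2, 7 without PESFA replicate 1, 2 without DK20FA replicate 1 and 8 without DK20FA replicate 2, and median-ratio scaling gave 3 up and 1 down. The fibroblast marker sums given above differ between the same groups, and their part was not tested.

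Comparisons of added factors gave few calls. Between PESFA cjESCs and cells pre-treated with IM12 and activin A, limma called 0 members in either direction, where 0.0893% of all genes rose and 0.214% fell. At an unadjusted p under 0.05 there were 7 members, and 0 in a model of the 4 libraries alone. By the paper's methods this step also changed the medium and moved the cells from feeders to fibronectin. With BMS493, an inverse agonist of retinoic acid receptors, limma also called 0 at 96 h, where 0.438% rose and 0.295% fell, with 14 at an unadjusted p under 0.05 and 4 in a model of the 4 libraries alone. With enforced SOX17 at 48 h limma called 0 members higher, where 10.3% of all genes rose, and 2 lower, where 6.37% fell, with 7 at an unadjusted p under 0.05. The 2 were RPL26L1 (fell by 0.54, SE 0.12, adjusted p = 0.00101) and RPL7 (fell by 0.32, SE 0.071, adjusted p = 8.29e-04). The median of the members was then −0.06 and that of all genes 0.10, and under quantile normalization 5 were called higher and 1 lower. Without SOX17 + BLSE replicate 2 at 48 h 0 were called by limma, and without either BLSE library 1 was.

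With BMP4 beside SOX17 at 96 h limma called 1 member higher, where 2.55% of all genes rose, and 0 lower, where 4.55% fell, with 17 at an unadjusted p under 0.05. By limma 0 were called without any 1 of the 4 libraries. Median-ratio scaling and quantile normalization each gave 0 higher and 1 lower, so no direction is given for the calls. By sign alone 58 members were higher and 9 lower, with a median of 0.14 beside −0.02 for all genes. The medians were 0.14 beside −0.01 under median-ratio scaling and 0.06 beside 0.01 under quantile normalization. This shift was not tested. From 96 h to day 6 with IWR1, 3 members rose, where 0.831% of all genes rose, and 1 fell, where 1.92% fell. RPL15 (0.42 ± 0.084, adjusted p = 0.00142), RPS4X (0.41 ± 0.089, adjusted p = 0.00309) and RPS2 (0.29 ± 0.069, adjusted p = 0.00629) rose, and RPL26 fell by 0.71 (SE 0.15, adjusted p = 0.00183). By limma 0 members were called without BLSE + IWR1 replicate 2 at 96 h or without day 6 replicate 2, and 1 without day 6 replicate 1. Median-ratio scaling gave 0 up and 1 down and quantile normalization 1 up and 1 down.

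The changes to 96 h on both routes were also set against each other in 1 test, the IWR1 change minus the SOX17 change. It called 1 member higher, where 3.16% of all genes were, and 1 lower, where 5.62% were. RPL7 (0.43 ± 0.10, adjusted p = 0.00223) went from 2314 and 1964 to 2577 and 2832 TPM on the IWR1 route and from 2503 and 2444 to 2351 and 2294 TPM on the SOX17 route. RPS27L (−0.74 ± 0.18, adjusted p = 0.00334) went from 196 and 206 to 265 and 243 TPM on the IWR1 route, and from 169 and 210 to 390 and 408 TPM on the SOX17 route. Under median-ratio scaling 0 members differed by limma, with 8 at an unadjusted p under 0.05, and under quantile normalization 0 were higher and 5 lower. By limma 0 were called without DK20FA replicate 1, SOX17 + BLSE replicate 2, pre-treated replicate 2 or BLSE + IWR1 replicate 2, with 10 to 14 at an unadjusted p under 0.05.

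RPL10L (gene 100398751) was at 59.8 and 83.9 TPM in PESFA cjESCs and at 24.6 and 66.1 TPM in pre-treated cjESCs. In the other 50 libraries it lay between 0 and 5.87 TPM, and 28 libraries were listed at 0, among them both replicates of BLSE, SOX17 + BLSE and BLSE + IWR1 at 96 h and of day 6. The PESFA and pre-treated libraries overlap no other. The rise from DK20FA (0 and 0.770 TPM) to PESFA was 5.76 ± 0.45 on the log2(TPM + 1) scale (adjusted p = 4.27e-12, limma). This difference between the media was already known from earlier results of these data, so its p-value is not separate support. To 96 h in BLSE + IWR1, where it is listed at 0, it fell by 5.37 (SE 0.45, adjusted p = 2.82e-12). A 0 in these files can be a failed estimate: the fibronectin gene FN1 is listed at 0 in all 54 libraries.

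RPL10, the parent, was not called between the media, with 2498 and 2903 TPM in DK20FA and 2649 and 2580.5 TPM in PESFA (−0.04 ± 0.072, adjusted p = 0.719). In the xrOvary RPL10L was at 0.320 and 5.87 TPM at day 20, 1.40 and 0 at day 40 and 0.190 and 0.650 at day 70. The called rise at day 20 (1.59 ± 0.45, adjusted p = 0.00660) rests on replicate 2, since without it the difference was 0.40 and was not called, and neither was it called without either day 6 library.

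The high libraries of RPL10L were also those of fibroblast genes. COL3A1, a fibrillar collagen, was at 587 and 310 TPM in PESFA and at 459 and 835 TPM in pre-treated libraries, against 0 to 19.2 TPM in the other 50. COL1A1 was at 878 to 2715 TPM in those 4 libraries and at 0.340 to 165 TPM elsewhere, and S100A6 at 436 to 1846 against 0 to 28.2 TPM. In all, 6 of the 15 fibroblast markers in the table, and 192 of the 14812 genes, were higher in each of these 4 libraries than in every other one. The cjESCs of both media were kept on mouse embryonic fibroblasts, and the part of fibroblast RNA in the RPL10L values was not tested.

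**Figure D5:**
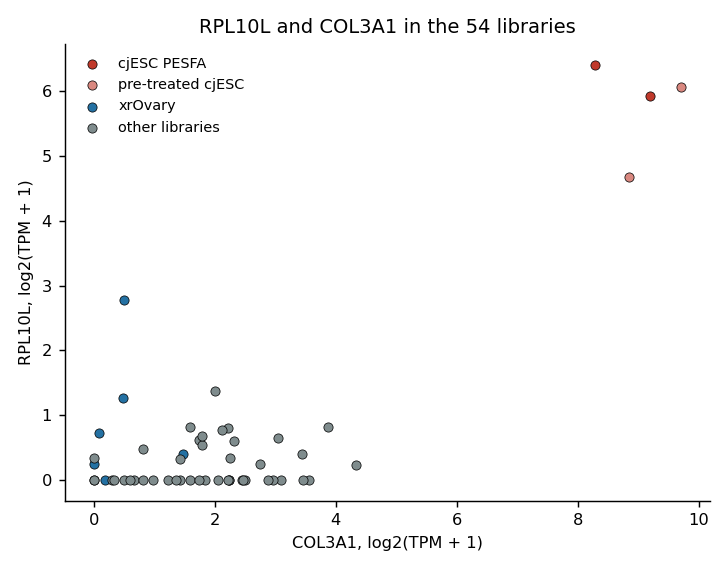
RPL10L (y axis) and COL3A1 (x axis) as log2(TPM + 1) in the 54 libraries; each point is a library. The 2 PESFA and 2 pre-treated libraries lie at the upper right, with RPL10L at 24.6 to 83.9 TPM and COL3A1 at 310 to 835 TPM, and no other library has RPL10L above 5.87 TPM.

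The genes most like RPL10L over the 27 condition means of log2(TPM + 1) were AGTR2, an angiotensin receptor (Pearson r = 0.969), LOC118150930 (0.969), the mesenchymal T-box factor TBX15 (0.968), ISLR (0.967) and the matrix protein gene DPT (0.966). AGTR2 was at 51.8 TPM in PESFA, 35.2 TPM in pre-treated cells and 0.275 TPM in DK20FA cjESCs on average. Those most like the mean of the other 67 members were BCL2L15 (0.959), the meiotic recombination gene REC114 (0.946), EGFL8 (0.946), CCDC198 (0.941) and the caspase gene CASP9 (0.940). REC114 rose from 2.46 TPM at day 6 to 68.7 TPM at day 70, and CASP9 from 81.5 to 167 TPM. These likenesses describe 27 means that share culture time and libraries.

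From a list of 33 genes whose products assemble ribosomes, 26 were tested. From day 6 to xrOvary day 20, 1 of them rose and 9 fell (median −0.29), where 6.56% of all genes rose and 13.8% fell. From day 20 to day 70, 1 rose and 2 fell (median −0.11), where 3.89% rose and 12.2% fell. NOP10 and GAR1, of the particles that convert uridine to pseudouridine in ribosomal RNA, fell by 0.88 (SE 0.14, adjusted p = 4.01e-06) and 0.79 (SE 0.13, adjusted p = 9.09e-06) at entry. NOP56, of the particles that methylate ribosomal RNA, fell by 0.64 (SE 0.099, adjusted p = 3.35e-06), from 275 ± 4.45 to 176 ± 10.7 TPM. The entry count was 1 up and 7 down after TPM were rescaled without the members, where 11.9% of all genes fell, and 1 up and 8 down under median-ratio scaling, where 12.0% fell. The later interval turned to 3 up and 0 down and to 4 up and 0 down in the same settings, so no direction is given for it.

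More of the same list fell than rose by 96 h. With SOX17 + BLSE 4 rose and 15 fell (median −0.43), where 25.6% of all genes rose and 17.6% fell, with NOP56 at 973 ± 8.41 TPM in cjESCs and 322 ± 15.4 TPM at 96 h (fell by 1.59, SE 0.099, adjusted p = 7.32e-16) and WDR12, of a 60S assembly complex, falling by 1.28 (SE 0.16, adjusted p = 1.11e-08). With BLSE + IWR1 1 rose and 8 fell (median −0.10), where 22.7% rose and 17.4% fell, with NHP2, a partner of NOP10, falling by 0.98 (SE 0.11, adjusted p = 2.34e-09) and NOP56 by 0.97 (SE 0.099, adjusted p = 2.96e-10). Median-ratio scaling gave 0 up and 16 down and 0 up and 11 down for these comparisons, where 22.6% of all genes fell in each. In PESFA against DK20FA cjESCs all 8 called genes were lower, where 8.73% of all genes were, among them NPM1, the major nucleolar chaperone (fell by 0.56, SE 0.095, adjusted p = 2.64e-05). In BLSE alone 1 rose and 6 fell, where 12.4% of all genes rose and 17.1% fell.

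Of 15 translation factor and related genes tested, many of which share the pyrimidine tract with the ribosomal protein genes, 5 rose and 1 fell with SOX17 + BLSE, where 25.6% of all genes rose and 17.6% fell. With BLSE + IWR1 all 5 called genes rose, where 22.7% of all genes rose, led by HNRNPA1 (0.80 ± 0.087, adjusted p = 9.87e-10) and EIF3H (0.74 ± 0.083, adjusted p = 2.29e-09), and median-ratio scaling gave 3 up and 1 down. EEF1A1, which brings aminoacyl-tRNA to the ribosome, was at 7165 ± 257 TPM in pre-treated cells and 11271 ± 368 TPM at 96 h (0.65 ± 0.052, adjusted p = 5.45e-13). In the xrOvary 2 rose and 2 fell at entry (6.56 and 13.8% of all genes) and 4 rose and 3 fell afterwards (3.89 and 12.2% of all genes), the second 1 up and 2 down under quantile normalization. EIF4A2, an RNA helicase of initiation, rose by 0.63 (SE 0.16, adjusted p = 0.00275) at day 20 and fell by 0.95 (SE 0.16, adjusted p = 2.51e-05) by day 70. RACK1, a scaffold on the 40S subunit outside the rule, averaged 2164 TPM at day 6, 2388 at day 20 and 2161 at day 70.

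Of 15 mTOR and MYC genes tested, all 4 called at xrOvary day 20 fell, where 13.8% of all genes fell and 6.56% rose, and the 1 called from day 20 to day 70 rose, where 3.89% rose. By 96 h 3 rose and 5 fell with SOX17 + BLSE, where 25.6% of all genes rose and 17.6% fell. With BLSE + IWR1 3 rose and 4 fell, where 22.7% of all genes rose and 17.4% fell. MYCL, a relative of MYC, rose with IWR1 by 2.15 (SE 0.28, adjusted p = 7.37e-08), from 3.51 ± 0.990 to 18.8 ± 2.06 TPM. With SOX17 + BLSE it fell by 0.97 (SE 0.28, adjusted p = 0.00434 by limma), from 32.4 ± 12.7 to 15.5 ± 1.58 TPM. The starting cells differed, with MYCL lower by 2.66 in PESFA than in DK20FA cjESCs (SE 0.28, adjusted p = 4.63e-09). MYC fell by 4.03 (SE 0.14, adjusted p = 2.77e-22) from pre-treated cells to 96 h with IWR1, from 269 ± 31.4 to 15.4 ± 0.750 TPM, and by 0.89 (SE 0.14, adjusted p = 7.27e-06) from day 6 to xrOvary day 20. MYCN fell by 0.87 (SE 0.17, adjusted p = 1.14e-04) at entry, from 253 ± 7.73 to 138 ± 11.5 TPM. EIF4EBP1, the repressor of initiation that mTOR inactivates, rose from 36.3 ± 4.37 TPM at day 20 to 73.3 ± 3.08 TPM at day 70 (adjusted p = 4.07e-06).

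Of the 66 mitochondrial ribosomal protein genes, which serve the separate ribosome of the mitochondrion, 6 rose and 7 fell at xrOvary day 20 (median 0.05) and 1 rose and 6 fell from day 20 to day 70 (median −0.07), beside the shares of all genes given above. The counts were 13 up and 6 down and 5 up and 1 down under quantile normalization, so no direction is given. MRPL52 fell by 1.18 (SE 0.12, adjusted p = 8.68e-10) at entry, from 402 ± 27.9 to 177 ± 18.7 TPM. The difference between the mitochondrial and the cytosolic list was not tested.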

How the data were processed

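Poly(A) RNA of 54 samples was sequenced from one end in directional libraries. STAR was the aligner used by the authors, who dropped alignments of low mapping quality and estimated abundances with RSEM, then deposited TPM per gene, with 14812 genes in the table used here. The strand setting is not given in the sources used here.

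Deposited TPM were put on a log2 scale after adding 1, and genes reaching 1.5 there in any library were kept, 11197 of 14812. R 4.3.3 with limma 3.58.1 modelled all 54 libraries with 27 condition means (27 residual degrees of freedom, intensity trend). P-values, two-sided, took the Benjamini-Hochberg correction across every gene kept, and calls needed an adjusted p under 0.01. They rest on 2 replicates per condition, where an exact permutation test could reach 0.33 at best. No libraries were identical (0 pairs). In data simulated for PESFA against DK20FA with 11197 genes, 56 of 100 genes changed 2-fold and 96 of 100 changed 4-fold were recovered, with 0 of 10997 others called.

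The members and lists were chosen with earlier results of these data known. Named genes are RPL10L, the lettered forms and their parents, RPLP0, RPLP1, RPSA and RACK1, the 3 called members with the largest rise and the 3 with the largest fall per comparison, the 5 highest and 5 lowest by mean TPM, the 5 genes most like RPL10L and most like the members' mean, and up to 3 genes per list and comparison; 1 gene that the rule names is not reported here. Alternatives were a pseudocount of 0.1, no filter, only the libraries compared, a replicate block, median-ratio scaling, quantile normalization, no trend, a threshold of 0.05 and each replicate left out. Counts of the lists under other scalings were added after seeing the data. Python 3.11.15 with pandas 2.3.3 and matplotlib 3.10.9 made the summaries and plots.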

Additional observations from a re-analysis of the deposited data

Results flagged for a closer look

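The change to 96 h differed between the IWR1 route and the SOX17 route, by a test of the difference itself (limma, Benjamini-Hochberg adjusted over all genes tested), for 3 ribosomal protein genes. Of the 67 members without RPL10L, 1 was called higher, where 3.16% of all genes were, and 1 lower, where 5.62% were. These rates are below those of all genes, and under median-ratio scaling 0 of the 67 were called. For RPL7 the IWR1 change exceeded the SOX17 change by 0.432 on the log2(TPM + 1) scale, and for RPS27L it lay 0.739 below, a difference of −0.739. For RPL10L the difference was −4.96, because it was at 24.6 and 66.1 TPM in pre-treated cjESCs and listed at 0 at 96 h, while it was at 0 and 0.770 TPM in DK20FA cjESCs. Its difference between the media was already known from earlier results of these data. The routes also differ in line, medium and starting cells, which cannot be told apart.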

How the results depend on the processing

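Counts of called members out of 67 follow in the order PESFA against DK20FA (13), BLSE 96 h (13), SOX17 + BLSE 96 h (23), SOX17 at 48 h (2), BMP4 (1), BLSE + IWR1 96 h (21), BMS493 (0), day 6 (4), xrOvary day 20 (29), xrOvary day 70 (23) and the route difference (2), with comparisons whose count stayed within 1.5 times left out. With only the libraries compared, limma called 0 in each, except 3 for SOX17 + BLSE, with 4 to 41 members at an unadjusted p under 0.05. Of all 11197 genes, 257 rose and 347 fell there for BLSE, 833 and 731 for SOX17 + BLSE and 191 and 116 for SOX17 at 48 h. For IWR1 733 rose and 774 fell, for the route difference 58 and 97, and 0 elsewhere. Counts with a replicate left out, given below, have no share of all genes beside them and cannot be set against all genes. At an adjusted p under 0.05 the counts were 23 for PESFA, 23 for BLSE, 4 for SOX17 at 48 h, 6 for BMP4, 35 for IWR1, 1 for BMS493, 8 for day 6, 35 for day 70 and 6 for the route difference. Of all 11197 genes, 1292 rose and 1707 fell at that limit for PESFA, 1817 and 2571 for BLSE and 1762 and 1063 for SOX17 at 48 h. For BMP4 they were 560 and 877, for IWR1 3347 and 2386 and for BMS493 142 and 156. For day 6 they were 228 and 426, for day 70 721 and 2088 and for the route difference 729 and 1036. Median-ratio scaling gave 4 for PESFA, 5 for SOX17 + BLSE, 9 for IWR1, 1 for day 6, 19 for day 20 and 0 for the route difference. In the same order, the shares of all genes that rose and fell were 10.3 and 6.31%, 20.1 and 22.6%, and 16.4 and 22.6%. The last 3 were 0.991 and 1.38%, 8.39 and 12%, and 3.33 and 5.94%. Quantile normalization gave 8 for BLSE, 6 for SOX17 at 48 h, 2 for day 6, 17 for day 20, 6 for day 70 and 5 for the route difference. In the same order, the shares of all genes that rose and fell were 14.4 and 15.7%, 8.43 and 8.54%, and 1.2 and 1.64%. The last 3 were 9.94 and 11.2%, 6.96 and 7.56%, and 4.33 and 5.46%. Without the intensity trend the counts were 6 for PESFA, 0 for BMP4, 12 for IWR1, 1 for day 6, 14 for day 70 and 1 for the route difference. Of all 11197 genes, 882 rose and 899 fell in that setting for PESFA, 255 and 461 for BMP4 and 2511 and 1908 for IWR1. For day 6 they were 72 and 160, for day 70 407 and 1312 and for the route difference 307 and 601.

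The summed level on the log2 scale became 0.15 for PESFA, 0.30 for BLSE, 0.0724 for SOX17 + BLSE, −0.19 for SOX17 at 48 h, −0.0248 for IWR1, 0.14 for BMS493, 0.34 for day 20 and 0.46 for day 70 under median-ratio scaling.

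With single replicates left out, the lone library being assumed to vary like the others, the counts ran from 1 to 8 for PESFA, 5 to 11 for BLSE, 17 to 18 for SOX17 + BLSE, 0 to 2 for SOX17 at 48 h, 0 to 0 for BMP4, 7 to 19 for IWR1, 0 to 5 for day 6, 14 to 24 for day 20, 8 to 13 for day 70 and 0 to 4 for the route difference.

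A replicate block gave 2 for BMP4 in place of 1 and moved no other count by over 1.5 times. Deviations of libraries with the same replicate number correlated between −0.0506 and 0.164, so the numbers were not taken to pair samples. Of the members' signs, RPS2 turned from 0.21 to −0.01 with IWR1 under median-ratio scaling and from 0.24 to −0.01 at day 70 under quantile normalization. Depth is unknown, and fold changes of RPL3L and RPL10L depend on the value added before the log.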
